A study of Mus musculus with 9 samples.

Results

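Homologous recombination, the Fanconi anaemia pathway and the checkpoint kinases that serve them were followed through 36 named genes, in RNA of mouse lung tumour cells. The genes were listed by name, with no value in the rule, although earlier results of these data were known when the list was drawn up. All 36 were among the 12339 genes of the deposited table and all 36 were tested. Each gene was read in 9 libraries of GFP-positive KP-GFP cells, which are mouse lung tumour cells, labelled with the strain C57BL/6, that carry green fluorescent protein. In every group the cells grew as spheroids, in matrigel by the series' design text and in round-bottom low-attachment plates by the labels' protocol. Of the 3 groups of 3 libraries, one held KP-GFP cells grown with lung tissue-resident macrophages (TRMs, which are alveolar macrophages) and one held KP-GFP cells grown with bone-marrow monocytes. In the third group the KP-GFP cells grew alone. Each spheroid was started from 2500 KP-GFP cells with 5000 TRMs, with 5000 monocytes or with no added cells, and grew for 7 days. The GFP-positive cells of a condition were sorted from 32 pooled spheroids. Whether replicates were separate cultures is not stated in the labels. The p-values therefore measure only how far these samples spread, and that spread may be technical. The study asked how tumour cells differ after growth beside each kind of added cell.

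Homologous recombination rebuilds a broken chromosome by copying the sister chromatid. Broken ends are resected to single strands, replication protein A coats those strands, BRCA2 helps load the proteins that search for the matching sequence, and translocases, helicases and nucleases then complete strand exchange and take the joined molecules apart. The Fanconi pathway works at replication forks that stall at cross-links between the DNA strands: a multi-subunit core complex attaches ubiquitin to the FANCD2 and FANCI pair, which recruits nucleases and hands the break to recombination. The kinases ATM and ATR, with their effectors CHEK2 and CHEK1, halt the cell cycle while repair proceeds. Many genes of these pathways are transcribed mainly in S and G2 phase, when a sister chromatid is present.

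Recovered reads per library ranged from 16001895 to 32771448. The values are counts per 1000000 reads of the scaled library, written CPM here, and the members had between 7 reads (Rad51c in one library of cells alone) and 2673 reads in a library. In the deposited values monocyte replicate 3 stood apart from the other libraries on the second principal component, which held 20.9% of the variance. Of 30 listed macrophage and monocyte markers 16 had values, and their summed level was 177 to 329 CPM with TRMs, 188 to 252 CPM with monocytes and 163 to 253 CPM alone. The groups overlapped in this sum, of which Cd14 alone made up 84.3 to 213 CPM per library. Ptprc, which encodes the leukocyte antigen CD45, had at most 4.47 CPM in any library and 0 reads in monocyte replicate 3. In limma 2 of the 16 were called higher with TRMs and 0 lower, and 2 higher and 3 lower with monocytes. With TRMs these are 12.5% and 0%, beside 10.2% of all genes tested called higher and 8.15% lower. With monocytes they are 12.5% and 18.8%, beside 14.7% and 12.7%. Mrc1, a macrophage mannose receptor, averaged 32.9 ± 9.27 CPM with TRMs, 39.2 ± 7.49 CPM with monocytes and 5.12 ± 0.211 CPM alone, and F13a1, a clotting factor subunit, averaged 13.4 ± 3.82 CPM with TRMs, 13.4 ± 5.38 CPM with monocytes and 0.960 ± 0.303 CPM alone. Both were called higher in both co-cultures, and their co-culture libraries did not overlap those of cells alone. With TRMs 5 of the 16 markers (31.2%) lay fully above cells alone and 1 (6.25%) fully below, beside 20.8% and 18.5% of all genes tested. With monocytes 3 (18.8%) lay fully above and 3 fully below, beside 21.3% and 19.2%. Chil3, Ptprc and Siglecf were the 3 called lower with monocytes (limma adjusted p = 0.00659, 0.0361 and 0.0413), calls that were lost in 1, 10 and 5 of the 18 alternatives tried. The part of any carried-over cells in the results below was not tested. The epithelial keratin Krt8 had 3386 to 5340 CPM in the 9 libraries. The cell adhesion genes Cdh1, Cldn7 and Cldn4 were called lower with monocytes, 3 of 8 epithelial markers with values (37.5%, beside 12.7% of all genes tested). Cldn4 was also called lower with TRMs (limma adjusted p = 0.0477, lost in 6 of 18 alternatives), which is 12.5%, beside 8.15%. The log2 fold change was above 0 for 0 of the 8 with monocytes (median -0.49) and for 4 with TRMs (median 0.0021).

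With monocytes, 14 of the 36 genes were called higher and 3 lower than in cells alone, by limma with a Benjamini-Hochberg adjusted p under 0.05. The 14 are 38.9% of the members, beside 14.7% of all 12326 genes tested called higher, and the 3 are 8.33%, beside 12.7% called lower. With TRMs, 4 were called higher and 4 lower, 11.1% each way, beside 10.2% of all genes called higher and 8.15% called lower, so the TRM counts lay near the background. The count of 8 with TRMs fell to 4 without TRM replicate 1, to 3 without TRM replicate 2, to 5 without TRM replicate 3, to 4 without alone replicate 1 or 3 and to 5 without monocyte replicate 2. The count of 17 with monocytes lay between 12 and 20 under every alternative tried. The median log2 fold change of the 36 genes was 0.26 with TRMs and 0.70 with monocytes, where the medians of all genes were -0.0019 and -0.016. Fold changes are ratios on the log2 scale of values that carry 0.5 added read, which understates changes of low genes. Both comparisons use the same 3 libraries of cells alone, so the values of the co-cultures against cells alone are not independent of each other. RNA was taken from sorted cell populations, in which a smaller share of cells that express a gene and less RNA per cell cannot be told apart.

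**Figure D1:**
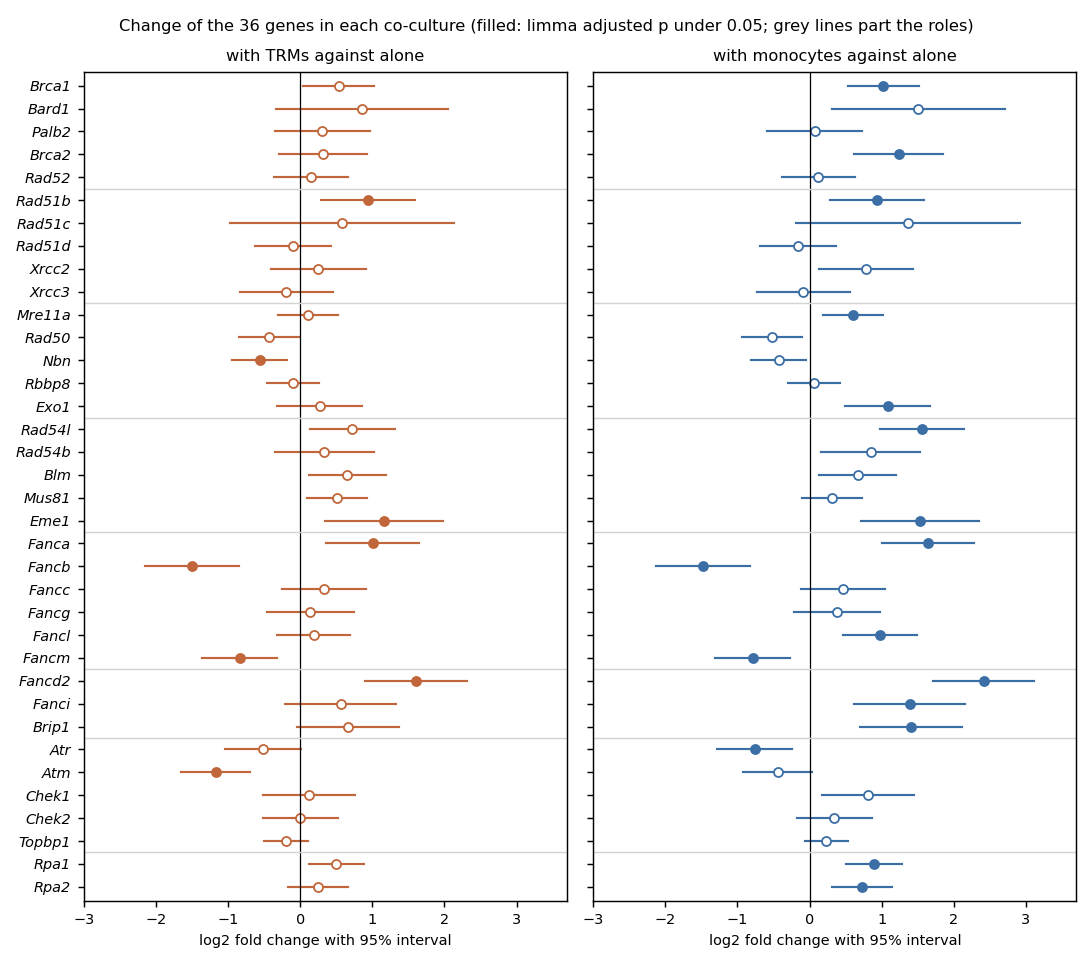
Log2 fold change of each of the 36 genes, with TRMs against alone (left) and with monocytes against alone (right), in the order of their roles from BRCA complex to replication protein A; lines are limma 95% intervals over 9 libraries and filled points have an adjusted p under 0.05. Fancd2 lies farthest to the right in both panels and Fancb farthest to the left, and the right panel has 14 filled points above 0 where the left has 4.

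The Fanconi pathway held the largest changes in both directions. Fancd2, the ubiquitinated clamp at the centre of the pathway (GENCODE annotation of mm10, chromosome 6, 113531682 to 113597017), had 9.35, 14.1 and 10.6 CPM with TRMs, 28.1, 21.04 and 12.6 CPM with monocytes, and 3.50, 4.96 and 2.84 CPM alone. All 6 co-culture libraries were above all 3 libraries of cells alone, and monocyte replicate 3 was the lowest of its group, inside the range of the TRM libraries. Fancd2 rose with TRMs (log2 fold change 1.61 ± 0.33, SE; limma adjusted p = 0.00413) and with monocytes (log2 fold change 2.41 ± 0.33; limma adjusted p = 0.000191), and both calls held in all 18 alternatives. Its partner in the clamp, Fanci, averaged 5.64 ± 1.28 CPM with TRMs, 10.1 ± 3.18 CPM with monocytes and 3.88 ± 1.28 CPM alone (SD, n = 3 each). Fanci rose with monocytes (log2 fold change 1.39 ± 0.36, limma adjusted p = 0.0113), and with TRMs its libraries overlapped those of cells alone. Brip1, a helicase that binds BRCA1 and is also a Fanconi gene, had 8.29, 6.93 and 7.39 CPM with TRMs, 12.2, 12.5 and 13.1 CPM with monocytes, and 2.88, 7.81 and 4.76 CPM alone. The monocyte libraries lay within 1 CPM of each other and above every other library, whereas alone replicate 2 lay among the TRM libraries. Brip1 rose with monocytes (log2 fold change 1.41 ± 0.33, limma adjusted p = 0.0065), and with TRMs it had an adjusted p of 0.19 in limma, or 0.0352 without alone replicate 2.

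In the Fanconi core complex, which carries the ubiquitin ligase, 2 of 6 genes rose and 2 fell with monocytes, and 1 rose and 2 fell with TRMs. With monocytes these are 33.3% each way, beside 14.7% of all genes called higher and 12.7% lower. With TRMs they are 16.7% and 33.3%, beside 10.2% and 8.15%, and all these shares rest on 6 genes. Fanca, a structural subunit of the core (chromosome 8, 123268300 to 123318576), had 14.2, 15.5 and 11.6 CPM with TRMs, 30.8, 19.1 and 16.3 CPM with monocytes, and 5.82, 5.37 and 10.1 CPM alone. The 3 monocyte libraries were highest, the TRM libraries followed, and the cells alone were lowest with no overlap between groups. Its log2 fold change was 1.64 ± 0.30 with monocytes (limma adjusted p = 0.0014) and 1.00 ± 0.30 with TRMs (adjusted p = 0.0323); the TRM call was lost without TRM replicate 1 or 2 or alone replicate 1 or 2 (adjusted p 0.0798 to 0.128) and in limma-voom (0.0769). Fancl, the ligase subunit itself (chromosome 11, 26386135 to 26471876), had 9.17, 6.93 and 9.10 CPM with TRMs, 15.6, 13.5 and 14.2 CPM with monocytes, and 7.12, 6.45 and 8.55 CPM alone. Every monocyte library was above every other library, while TRM libraries and cells alone overlapped. Fancl rose with monocytes (log2 fold change 0.98 ± 0.24, limma adjusted p = 0.00819).

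Fancb and Fancm fell in both co-cultures. Fancb, which pairs with the ligase subunit inside the core (chromosome X, 164980592 to 164997272), had 6.29, 6.22 and 7.76 CPM with TRMs, 4.30, 8.06 and 9.11 CPM with monocytes, and 20.1, 14.9 and 22.6 CPM alone. The lowest library of cells alone was above the highest co-culture library, and the TRM libraries lay inside the range of the monocyte libraries. Fancb had a log2 fold change of -1.50 ± 0.30 with TRMs (limma adjusted p = 0.00412) and -1.48 ± 0.30 with monocytes (limma adjusted p = 0.00311), and both calls held in all 18 alternatives. Fancm, a DNA translocase that brings the core to chromatin (chromosome 12, 65075603 to 65132058), had 6.79, 7.16 and 8.29 CPM with TRMs, 9.05, 7.60 and 6.50 CPM with monocytes, and 14.1, 11.8 and 13.9 CPM alone. Again all 6 co-culture libraries lay below all 3 libraries of cells alone. The log2 fold change of Fancm was -0.84 ± 0.24 with TRMs (limma adjusted p = 0.0272) and -0.79 ± 0.24 with monocytes (limma adjusted p = 0.0264). The TRM call of Fancm was lost without TRM replicate 1 or 2 or alone replicate 1 or 3 (adjusted p 0.0764 to 0.104), and the monocyte call without monocyte replicate 2 or 3 or alone replicate 1 or 3 (adjusted p 0.0611 to 0.0965). Fancc and Fancg, the other two core subunits, did not pass in any comparison: Fancc averaged 15.7 ± 1.67 CPM with TRMs, 17.6 ± 4.53 CPM with monocytes and 12.9 ± 4.15 CPM alone, and Fancg 9.95 ± 1.09 CPM with TRMs, 11.96 ± 2.90 CPM with monocytes and 9.23 ± 2.48 CPM alone, with overlapping groups.

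**Figure D2:**
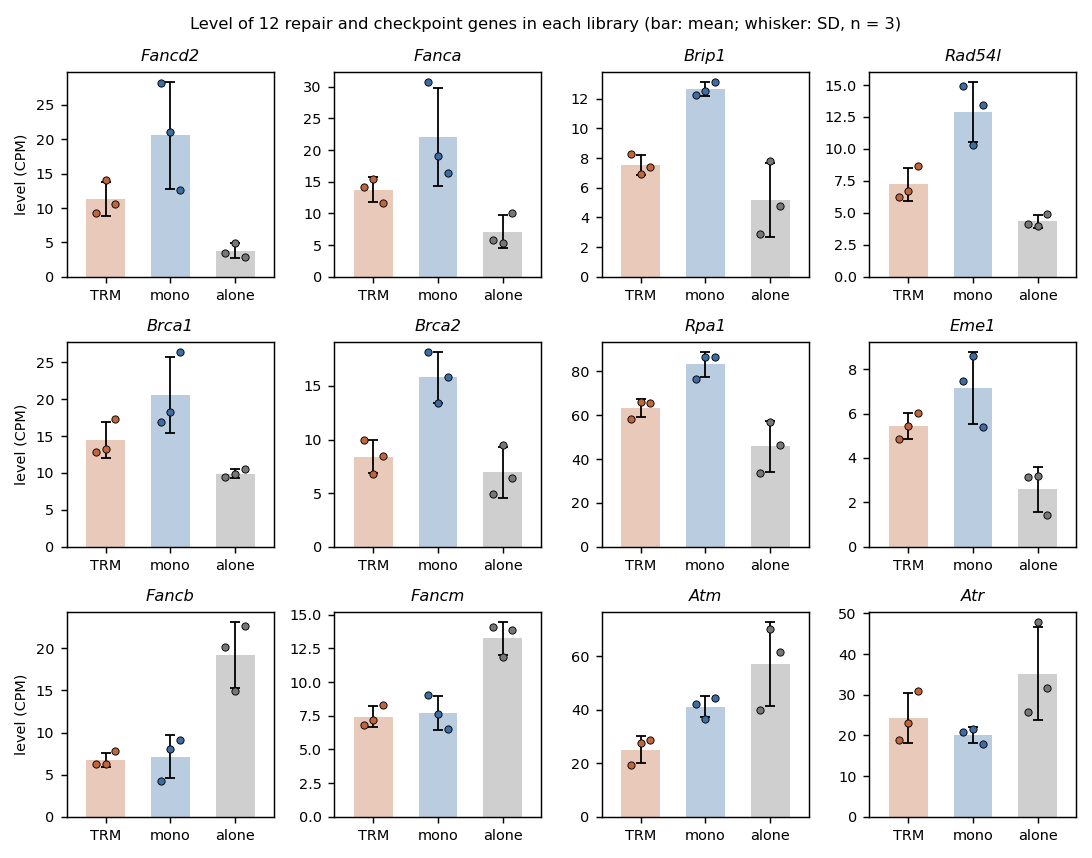
Level in CPM of 12 of the genes in each library (points), with the group mean (bar) and SD (whisker), n = 3 libraries for TRM co-culture, monocyte co-culture and cells alone from left to right. The top and middle rows hold genes called higher with monocytes, Fancd2 to Eme1, and the bottom row holds Fancb, Fancm, Atm and Atr, whose highest values are in cells alone.

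The promoters of 5 genes are shown because each gene was called in the same direction against cells alone in both co-cultures: Fanca, Rad51b and Eme1 higher, Fancb and Fancm lower. Each is the stretch of 250 bases before the annotated start in RefSeq (GRCm38.p6), written 5′ to 3′ on the strand of the gene. RefSeq lists more than 1 start for 3 members, Rad51b among them, and the first listed was used. Most of the Eme1 window lies inside the gene as GENCODE places it. Windows of some other members counted below, such as Fancl and Fancc, also lie inside their GENCODE genes. Capitals mark the letters CCAAT (or ATTGG, the same site on the other strand), the core of NF-Y sites, and TTCCCGCC (or GGCGGGAA), one of the E2F-type motifs searched. Fanca lies at chr8:123318577-123318826 on the reverse strand, Rad51b at chr12:79297032-79297281 on the forward strand, Eme1 at chr11:94653744-94653993 on the reverse strand, Fancb at chrX:164980342-164980591 on the forward strand and Fancm at chr12:65075353-65075602 on the forward strand.
Fanca: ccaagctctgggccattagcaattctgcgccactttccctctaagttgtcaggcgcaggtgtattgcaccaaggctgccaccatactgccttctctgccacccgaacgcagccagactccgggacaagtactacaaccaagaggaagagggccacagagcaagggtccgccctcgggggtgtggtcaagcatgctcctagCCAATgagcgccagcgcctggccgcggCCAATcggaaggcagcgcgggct
Rad51b: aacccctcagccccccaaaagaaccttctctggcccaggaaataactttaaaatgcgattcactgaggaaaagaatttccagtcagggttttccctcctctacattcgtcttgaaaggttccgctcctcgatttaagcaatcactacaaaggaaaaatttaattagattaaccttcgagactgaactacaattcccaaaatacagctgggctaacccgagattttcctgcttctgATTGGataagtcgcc
Eme1: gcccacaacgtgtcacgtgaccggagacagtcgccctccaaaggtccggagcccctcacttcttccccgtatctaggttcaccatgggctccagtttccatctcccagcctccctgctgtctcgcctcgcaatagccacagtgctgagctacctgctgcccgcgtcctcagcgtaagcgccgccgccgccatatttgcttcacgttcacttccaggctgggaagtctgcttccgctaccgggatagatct
Fancb: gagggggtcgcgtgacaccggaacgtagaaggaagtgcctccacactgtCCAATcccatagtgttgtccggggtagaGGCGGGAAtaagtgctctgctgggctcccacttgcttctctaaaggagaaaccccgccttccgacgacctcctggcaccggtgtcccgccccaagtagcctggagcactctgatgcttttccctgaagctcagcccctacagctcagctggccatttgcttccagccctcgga
Fancm: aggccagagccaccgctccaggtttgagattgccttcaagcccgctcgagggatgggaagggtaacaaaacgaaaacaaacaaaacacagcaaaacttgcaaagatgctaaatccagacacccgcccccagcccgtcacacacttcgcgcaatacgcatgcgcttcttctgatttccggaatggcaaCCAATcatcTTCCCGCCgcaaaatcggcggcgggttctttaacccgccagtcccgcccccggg
Fanca holds CCAAT 2 times and Rad51b once, on the opposite strand, 15 bases before the start used. The Eme1 window holds none of the motifs searched. Fancb and Fancm, the pair called lower, each hold 1 CCAAT and 1 TTCCCGCC. Among the 28 members with an entry, 15 promoters (53.6%) hold CCAAT on either strand, beside 36.5% of the 9910 table genes with an entry. The share was 8 of 12 for members called higher with monocytes, 2 of 3 for those called lower and 5 of 13 for those not passing. E2F-type motifs, searched as TTTCGCGC, TTTGGCGC and TTCCCGCC on both strands, were in 3 of 28 promoters (Fancb, Fancm and Topbp1), beside 4.84% of table genes. CHR-type motifs, TTTGAA and TTCGAA, were in 2 of 28, Bard1 and Atr, beside 12.2%. Topbp1 holds TTTCGCGC. A match describes the letters of a window and says nothing of binding. Fancd2, also called higher in both co-cultures, is named only.

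Of the 5 genes of the BRCA complex and strand annealing, 2 rose with monocytes (40%, beside 14.7% of all genes called higher). Brca1, the tumour suppressor that directs broken ends to recombination (chromosome 11, 101488764 to 101551955), had 12.9, 13.2 and 17.3 CPM with TRMs, 16.9, 18.3 and 26.4 CPM with monocytes, and 9.39, 9.80 and 10.6 CPM alone. Every co-culture library was above every library of cells alone, and the 2 lowest monocyte libraries lay near the highest TRM library. Brca1 rose with monocytes (log2 fold change 1.02 ± 0.23, limma adjusted p = 0.00518); with TRMs its log2 fold change was 0.53 ± 0.23 (adjusted p = 0.13). Brca2, a tumour suppressor that acts on resected DNA (chromosome 5, 150522630 to 150570329), had 9.92, 6.81 and 8.49 CPM with TRMs, 18.2, 13.4 and 15.8 CPM with monocytes, and 4.89, 9.53 and 6.38 CPM alone. Its monocyte libraries were above all other libraries, and TRM libraries overlapped cells alone. Brca2 rose with monocytes (log2 fold change 1.23 ± 0.29, limma adjusted p = 0.00625), with 0.32 for TRMs (95% interval -0.30 to 0.93, adjusted p = 0.498). Both monocyte calls held in all 18 alternatives. Bard1, the ligase partner of BRCA1, was among the least abundant members at 2.49 ± 0.0513 CPM with TRMs, 4.06 ± 1.31 CPM with monocytes and 1.62 ± 0.929 CPM alone. Bard1 had a log2 fold change of 1.51 ± 0.55 with monocytes and a limma adjusted p of 0.0591, which passed without alone replicate 2 (adjusted p 0.037), as well as in limma-voom (0.0427) and on log2(value + 1) (0.0393). Palb2, the bridge between BRCA1 and BRCA2, averaged 6.50 ± 1.03 CPM with TRMs, 5.53 ± 0.924 CPM with monocytes and 5.32 ± 1.27 CPM alone, and Rad52, which anneals single strands, averaged 19.5 ± 4.20 CPM with TRMs, 18.9 ± 1.25 CPM with monocytes and 17.8 ± 4.72 CPM alone. The groups overlapped for both.

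Among the 5 recombination paralogues Rad51b, Rad51c, Rad51d, Xrcc2 and Xrcc3, which work together in complexes, Rad51b was the one called. This is 20% called higher in each co-culture, beside 10.2% of all genes with TRMs and 14.7% with monocytes, and rests on 5 genes. Rad51b (chromosome 12, 79297282 to 79814690) had 5.10, 7.10 and 6.29 CPM with TRMs, 7.11, 6.26 and 5.11 CPM with monocytes, and 3.23, 3.19 and 3.11 CPM alone. The libraries of cells alone lay within 1 CPM of each other and below all 6 co-culture libraries. Rad51b rose by the same log2 fold change, 0.94, with TRMs (limma adjusted p = 0.0453) and with monocytes (limma adjusted p = 0.0339). Both calls sat near the threshold: that with TRMs was lost without TRM replicate 1, 2 or 3, monocyte replicate 2 or alone replicate 1, 2 or 3 (adjusted p 0.0523 to 0.186), as well as in limma-voom (0.0593), with scaling by library totals (0.0668) and with the replicate number as a block (0.0619), and that with monocytes without TRM replicate 2 or 3, monocyte replicate 1 or 2 or alone replicate 1, 2 or 3 (adjusted p 0.0525 to 0.0931) and when the fit held only the groups compared (0.0746). Xrcc2 averaged 16.00 ± 6.15 CPM with TRMs, 22.3 ± 5.92 CPM with monocytes and 12.7 ± 1.39 CPM alone, and the cells alone lay below every monocyte library; its limma adjusted p with monocytes was 0.0739, and it passed without TRM replicate 1 or monocyte replicate 3 (adjusted p 0.0239 to 0.0267), as well as in DESeq2 (0.0392) and when the fit held only the groups compared (0.0456). Rad51c was barely read, at 1.38 ± 0.314 CPM with TRMs, 2.33 ± 0.116 CPM with monocytes and 1.33 ± 1.36 CPM alone, with alone replicate 2 above all other libraries; it passed with monocytes only without alone replicate 2 (adjusted p 0.028). Rad51d averaged 11.8 ± 1.96 CPM with TRMs, 11.3 ± 2.76 CPM with monocytes and 12.5 ± 1.55 CPM alone. Xrcc3 averaged 6.96 ± 2.05 CPM with TRMs, 7.33 ± 1.00 CPM with monocytes and 7.88 ± 1.92 CPM alone. For both of these the groups overlapped in every comparison.

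Of the 5 resection genes, 2 were called higher with monocytes and 1 lower with TRMs. These are 40% and 20%, beside 14.7% and 8.15% of all genes, and rest on 5 genes. Mre11a, the nuclease of the MRN complex that first binds a broken end, had 31.6, 38.5 and 38.8 CPM with TRMs, 63.00, 56.1 and 37.8 CPM with monocytes, and 32.5, 35.98 and 32.5 CPM alone. Monocyte replicates 1 and 2 stood clearly above the rest, and monocyte replicate 3 was inside the TRM range. Mre11a rose with monocytes (log2 fold change 0.60 ± 0.19, limma adjusted p = 0.033), a call lost without monocyte replicate 1 or 2 or alone replicate 1 or 3 (adjusted p 0.0936 to 0.117) and when the fit held only the groups compared (0.0536). Nbn, the subunit that recruits ATM to MRN, had 26.00, 18.9 and 24.8 CPM with TRMs, 23.7, 27.3 and 24.8 CPM with monocytes, and 32.1, 37.1 and 32.8 CPM alone. All 6 co-culture values were under the 3 values of cells alone. Nbn fell with TRMs (log2 fold change -0.56 ± 0.18, limma adjusted p = 0.0421), a call lost without TRM replicate 2 or 3, monocyte replicate 2 or alone replicate 1, 2 or 3 (adjusted p 0.053 to 0.203) and with the replicate number as a block (0.0581). With monocytes the log2 fold change of Nbn was -0.43 ± 0.18 (limma adjusted p = 0.0906). Rad50, the ATPase that tethers the ends, averaged 24.8 ± 4.87 CPM with TRMs, 23.1 ± 3.39 CPM with monocytes and 32.97 ± 2.21 CPM alone, and both co-cultures lay below cells alone without overlap. It had limma adjusted p-values of 0.151 with TRMs and 0.0621 with monocytes, and the second passed in DESeq2 (0.0397) and with scaling by library totals (0.0488). Rbbp8, which encodes the resection starter CtIP, averaged 32.4 ± 2.28 CPM with TRMs, 36.2 ± 2.92 CPM with monocytes and 34.95 ± 5.28 CPM alone with overlapping groups against cells alone.

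Exo1, the exonuclease that lengthens the resected strand, had 9.29, 10.3 and 10.6 CPM with TRMs, 21.4, 20.4 and 12.7 CPM with monocytes, and 11.2, 8.13 and 6.38 CPM alone. The monocyte libraries were above all others, replicate 3 least so. Exo1 rose with monocytes (log2 fold change 1.08 ± 0.27, limma adjusted p = 0.0104), a call lost without alone replicate 3 (adjusted p 0.0556). Rpa1, the large subunit of replication protein A, had 58.5, 65.9 and 65.6 CPM with TRMs, 76.7, 86.6 and 86.5 CPM with monocytes, and 33.8, 56.9 and 46.5 CPM alone. The groups were fully apart in the order monocytes, TRMs, alone. Rpa1 rose with monocytes (log2 fold change 0.89 ± 0.18, limma adjusted p = 0.00251); with TRMs it had 0.50 ± 0.18 (adjusted p = 0.0695), which passed without alone replicate 2 (adjusted p 0.0189) and with the replicate number as a block (0.0398). Rpa2, the middle subunit, had 27.2, 22.5 and 23.7 CPM with TRMs, 41.1, 31.1 and 30.98 CPM with monocytes, and 24.5, 17.2 and 20.5 CPM alone. Its monocyte libraries were the highest 3 of 9, and TRM libraries overlapped cells alone. Rpa2 rose with monocytes (log2 fold change 0.73 ± 0.19, limma adjusted p = 0.0131), a call lost without monocyte replicate 1 (adjusted p 0.0501).

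Translocases, helicase and junction nuclease came next. Rad54l, a DNA translocase that acts in strand invasion, had 6.23, 6.75 and 8.69 CPM with TRMs, 14.9, 10.3 and 13.4 CPM with monocytes, and 4.13, 3.96 and 4.94 CPM alone. No group overlapped another, and the order was monocytes, TRMs, alone. Rad54l rose with monocytes (log2 fold change 1.56 ± 0.27, limma adjusted p = 0.00105) in all 18 alternatives, and with TRMs it had 0.73 ± 0.27 (adjusted p = 0.0822). Its relative Rad54b had 4.85, 5.86 and 8.37 CPM with TRMs, 10.4, 10.4 and 6.46 CPM with monocytes, and 6.09, 4.28 and 4.58 CPM alone. Monocyte replicate 3 lay among the TRM libraries, just above the highest library of cells alone. The log2 fold change of Rad54b was 0.85 ± 0.32 with monocytes (limma adjusted p = 0.0647, or 0.0244 without monocyte replicate 3) and 0.33 ± 0.32 with TRMs (adjusted p = 0.527). Eme1, the regulatory partner of the MUS81 nuclease that cuts joined molecules (chromosome 11, 94644996 to 94653964), had 4.85, 5.45 and 6.05 CPM with TRMs, 7.49, 8.61 and 5.41 CPM with monocytes, and 3.15, 3.19 and 1.43 CPM alone. All 6 co-culture libraries were above the cells alone, of which replicate 3 was lowest. Eme1 rose with monocytes (log2 fold change 1.53 ± 0.38, limma adjusted p = 0.00911) in all 18 alternatives. With TRMs Eme1 also rose (log2 fold change 1.16 ± 0.38, limma adjusted p = 0.0487), a call lost without TRM replicate 1, 2 or 3, monocyte replicate 1 or 2 or alone replicate 1 or 3 (adjusted p 0.0524 to 0.203), as well as in edgeR (0.0662), with scaling by library totals (0.0687) and when the fit held only the groups compared (0.054). Mus81 itself averaged 44.6 ± 0.953 CPM with TRMs, 39.3 ± 6.89 CPM with monocytes and 31.9 ± 7.53 CPM alone, and it had limma adjusted p-values of 0.0872 with TRMs (0.0444 without alone replicate 1) and 0.257 with monocytes. Blm, the helicase that dissolves double junctions, averaged 12.6 ± 1.37 CPM with TRMs, 12.9 ± 2.92 CPM with monocytes and 8.02 ± 1.23 CPM alone, and both co-cultures lay above cells alone without overlap. Blm had limma adjusted p-values of 0.0852 with TRMs and 0.0612 with monocytes, which became 0.0499 and 0.0188 without monocyte replicate 3, and 0.0474 with monocytes in DESeq2.

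The apical kinases Atm and Atr had log2 fold changes below 0 in both co-cultures, of which limma called that of Atm with TRMs and that of Atr with monocytes. Neither kinase was called between the co-cultures (limma adjusted p = 0.187 for Atm and 0.773 for Atr). Atm, the kinase that answers double-strand breaks (chromosome 9, 53439149 to 53536740), had 19.2, 27.6 and 28.6 CPM with TRMs, 42.3, 36.7 and 44.3 CPM with monocytes, and 39.8, 70.4 and 61.6 CPM alone. The 3 TRM libraries were the lowest of the 9, and the monocyte libraries overlapped alone replicate 1. Atm fell with TRMs (log2 fold change -1.17 ± 0.22, limma adjusted p = 0.00268) in all 18 alternatives. With monocytes its log2 fold change was -0.44 ± 0.22 (limma adjusted p = 0.16, or 0.04 without alone replicate 1). Atr, the kinase that answers stalled forks, had 18.9, 23.02 and 30.9 CPM with TRMs, 20.8, 21.7 and 17.9 CPM with monocytes, and 25.9, 47.98 and 31.7 CPM alone. Alone replicate 2 stood above all other libraries, and the monocyte libraries lay below the 3 libraries of cells alone. Atr fell with monocytes (log2 fold change -0.76 ± 0.24, limma adjusted p = 0.0326), a call lost without monocyte replicate 1, 2 or 3 or alone replicate 2 or 3 (adjusted p 0.0553 to 0.129). With TRMs the log2 fold change of Atr was -0.52 ± 0.24 (limma adjusted p = 0.165). Chek1, the effector kinase of ATR, had 12.5, 11.1 and 19.3 CPM with TRMs, 26.03, 24.4 and 17.7 CPM with monocytes, and 8.68, 18.1 and 13.2 CPM alone. Its groups overlapped throughout, since alone replicate 2 exceeded monocyte replicate 3. The log2 fold change of Chek1 with monocytes was 0.81 ± 0.29 with a limma adjusted p of 0.0557, which passed without monocyte replicate 3 or alone replicate 2 (adjusted p 0.0209 to 0.0316) and in limma-voom (0.0424). With TRMs it was 0.12 ± 0.29 (adjusted p = 0.819) and turned to -0.16 without alone replicate 1 and to -0.12 without TRM replicate 3. Topbp1, which activates ATR, had 61.2, 66.98 and 72.7 CPM with TRMs, 98.3, 91.4 and 80.4 CPM with monocytes, and 69.9, 79.3 and 80.3 CPM alone. The monocyte libraries were just above those of cells alone and the TRM libraries reached lowest, and the limma adjusted p was 0.378 with TRMs and 0.242 with monocytes. Chek2, the effector kinase of ATM, averaged 19.7 ± 5.09 CPM with TRMs, 24.7 ± 3.87 CPM with monocytes and 19.7 ± 4.80 CPM alone with overlapping groups.

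Levels were also divided by the kilobases of exon over all annotated transcripts of a gene, which need not be the transcripts expressed here. The order of genes therefore depends in part on the annotation. On this scale Nbn was the most abundant member in cells alone at 13.4 ± 1.07 CPM per kb (SD, n = 3), followed by Mus81 at 8.95 ± 2.11 and Rpa1 at 8.20 ± 2.07. Rpa2, Topbp1, Chek2, Fancb and Rad50 followed between 6.93 and 6.13 CPM per kb, and in that order each mean differed from the next by less than their SDs. The lowest members alone were Fancd2, Rad51c and Bard1 at 0.475 ± 0.137, 0.302 ± 0.310 and 0.287 ± 0.164 CPM per kb, of which the last 2 did not differ beyond their spread. With TRMs Mus81, Rpa1 and Nbn led, and with monocytes Rpa1, Rpa2 and Mus81 did. Fancd2 was 25th of 36 with TRMs and 19th with monocytes, against 34th alone. Fancb was 18th with TRMs and 22nd with monocytes, against 7th alone.

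No member was called between the co-cultures. In limma 0 of 36 had an adjusted p under 0.05, as in edgeR, DESeq2 and limma-voom, where 0.398% of all genes tested were called in either direction by limma. At an unadjusted p under 0.05, limma counted 13 members, all lower with TRMs than with monocytes, edgeR and DESeq2 15 each and limma-voom 14, beside 5.44% of all genes that limma counted lower. The log2 fold change of TRMs over monocytes was below 0 for 29 of 36 genes, with a median of -0.41. For 14 members (38.9%) every TRM library lay below every monocyte library, beside 8.62% of all genes tested, and for 0 members every TRM library lay above. The 8 smallest p-values belonged to Fancl, Atm, Brca2, Rad54l, Topbp1, Exo1, Mre11a and Rpa2. Fancl had a log2 fold change of -0.79 ± 0.24 (SE) and a limma adjusted p of 0.178, Brca2 -0.92 ± 0.29 and 0.198, and Rad54l -0.84 ± 0.27 and 0.221. Exo1 had -0.81 (95% interval -1.40 to -0.22), and the smaller differences of Topbp1, Mre11a and Rpa2 were -0.43, -0.50 and -0.48, with limma adjusted p-values of 0.225, 0.319 and 0.337. For Atm the sign was also negative, -0.73 ± 0.22 (95% interval -1.21 to -0.25, limma adjusted p = 0.187), but its TRM libraries were below cells alone rather than between them and the monocyte libraries. The TRM mean of Topbp1, 66.9 CPM, was also below that of cells alone, 76.5 CPM, with overlapping libraries. Fancd2 had -0.80 (95% interval -1.51 to -0.10), Brca1 -0.49 (-0.99 to 0.00), Chek1 -0.69 (-1.32 to -0.06) and Rad54b -0.52 (-1.20 to 0.17). Atr, at 0.25 (-0.28 to 0.77), had its TRM mean above its monocyte mean. Intervals of this width do not show that the co-cultures act alike on these genes.

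**Figure D3:**
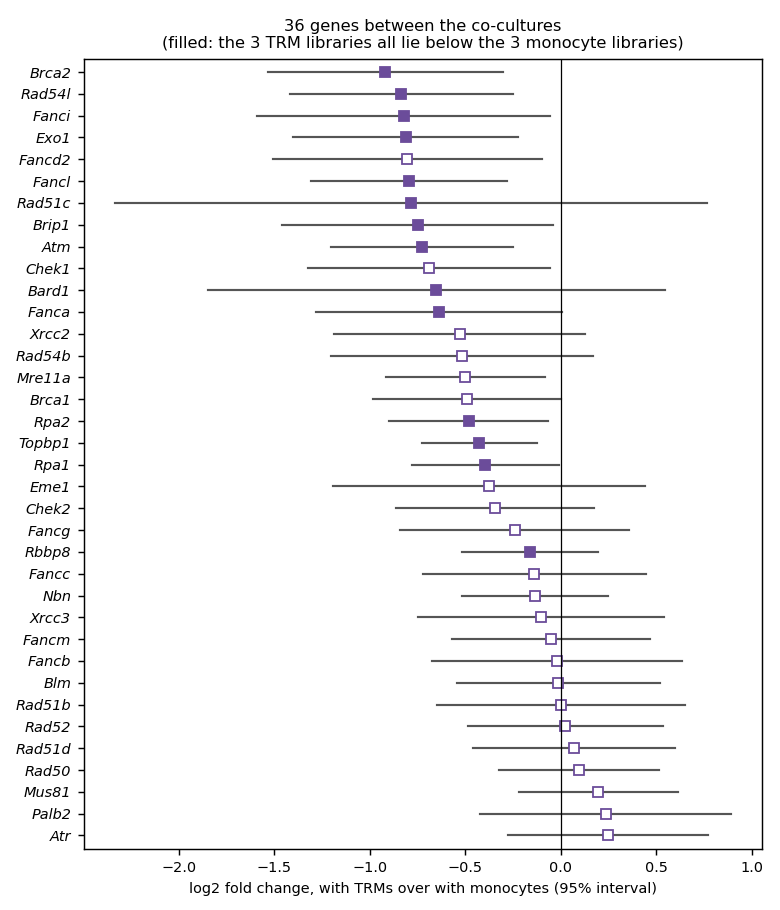
Log2 fold change of each gene with TRMs over with monocytes, with limma 95% intervals, ordered from the most negative at the top; filled squares mark the 14 genes whose 3 TRM libraries all lie below their 3 monocyte libraries. Most points lie left of 0, from Brca2 at -0.92 at the top to Atr at 0.25 at the bottom, and 29 of 36 are below 0.

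Of 45 further recombination, Fanconi and fork-protection genes tested, 11 were called higher and 2 lower with monocytes, and 2 higher and 2 lower with TRMs. With monocytes these are 24.4% higher and 4.44% lower, beside 14.7% and 12.7% of all genes, and with TRMs 4.44% each way, below the 10.2% and 8.15% of all genes. The median log2 fold change was 0.28 with monocytes and 0.081 with TRMs. BC030867, the gene that RefSeq lists as Hrob, averaged 6.38 ± 1.68 CPM with TRMs, 11.99 ± 2.47 CPM with monocytes and 2.05 ± 0.441 CPM alone. It rose with TRMs (log2 fold change 1.63, limma adjusted p = 0.00377) and with monocytes (2.55, 0.000129). Ercc1, a subunit of the nuclease that unhooks cross-links, averaged 51.5 ± 6.29 CPM with TRMs, 60.8 ± 7.89 CPM with monocytes and 23.4 ± 8.51 CPM alone, and rose in both (limma adjusted p = 0.00236 and 0.000471). Fignl1, an ATPase of recombination, rose with monocytes (log2 fold change 1.09, limma adjusted p = 0.00107), and had 0.45 with TRMs (adjusted p = 0.118). Rev3l, the catalytic subunit of a polymerase that bypasses lesions, averaged 21.8 ± 7.15 CPM with TRMs, 24.5 ± 3.16 CPM with monocytes and 56.7 ± 5.03 CPM alone. It fell with TRMs (log2 fold change -1.43, limma adjusted p = 0.000656) and with monocytes (-1.21, 0.00137), as did Slf2 (-0.89 and 0.00376 with TRMs, -0.72 and 0.00974 with monocytes). These 5 genes kept their calls in all 18 alternatives.

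Of 22 checkpoint clamp, mediator and effector genes, 7 were called higher and 2 lower with monocytes and 3 higher and 2 lower with TRMs. These are 31.8% higher and 9.09% lower with monocytes, beside 14.7% and 12.7% of all genes, and 13.6% and 9.09% with TRMs, near the 10.2% and 8.15% of all genes. The TRM count of 5 was 2 without TRM replicate 2 and 3 without alone replicate 3. Cdc25c, a phosphatase that CHEK1 restrains before mitosis, averaged 10.03 ± 2.69 CPM with TRMs, 23.4 ± 2.19 CPM with monocytes and 3.98 ± 1.17 CPM alone (limma adjusted p = 0.00561 and 4.42e-05). H2afx, the histone that ATM marks at breaks, rose with monocytes (log2 fold change 1.22, limma adjusted p = 0.000229) and with TRMs (0.72, 0.00964), a TRM call lost without TRM replicate 2 or alone replicate 3 (0.0537 in each). Cdc25b rose with monocytes (log2 fold change 0.95, limma adjusted p = 0.000423) and with TRMs (0.48, 0.0357), a TRM call lost in 7 of 18 alternatives (0.0501 to 0.14). Wee1, the kinase that opposes CDC25, averaged 61.7 ± 4.29 CPM with TRMs, 56.1 ± 14.1 CPM with monocytes and 124 ± 19.6 CPM alone, and fell with TRMs (log2 fold change -1.0, limma adjusted p = 0.00219) and with monocytes (-1.16, 0.000537).

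The other repair routes were counted in the same way. Of 12 end-joining genes, Prkdc, the catalytic subunit of DNA-PK, fell with monocytes (17.4 ± 4.72 CPM with monocytes and 34.5 ± 3.18 CPM alone; limma adjusted p = 0.004) and 0 were called with TRMs by limma, with 3 at an unadjusted p under 0.05 and 1 called by DESeq2. The monocyte count was 2 without monocyte replicate 1 or 3. In the full fit 8.33% were called lower with monocytes, beside 12.7% of all genes. Of 7 mismatch repair genes limma called 0 in either comparison, with 0 (TRMs) and 2 (monocytes) at an unadjusted p under 0.05. Limma-voom called 1 with monocytes, and limma called 2 without monocyte replicate 3. At an unadjusted p under 0.05 limma counted 31.2% of all genes with TRMs and 38.3% with monocytes. Of 20 base excision genes, Neil3, a glycosylase, rose with monocytes (log2 fold change 1.94, limma adjusted p = 0.00104) and with TRMs (1.33, 0.0144). The TRM call of Neil3 was lost without TRM replicate 1 or 2 or alone replicate 3 (0.0567 to 0.0652). Ogg1 and Xrcc1 were called higher with monocytes as well, and the count of 3 was 1 without monocyte replicate 1 or alone replicate 1 or 3. The shares called higher, 15% with monocytes and 5% with TRMs, stand beside 14.7% and 10.2% of all genes. Of 18 nucleotide excision genes, 1 rose and 3 fell with TRMs, and 1 rose and 2 fell with monocytes, a monocyte count of 3 that was 5 without alone replicate 2. The shares called lower, 16.7% with TRMs and 11.1% with monocytes, stand beside 8.15% and 12.7% of all genes. Xpc, a damage sensor, fell in both (log2 fold change -0.68 with TRMs and -0.81 with monocytes, limma adjusted p = 0.00657 and 0.00146). Ddb1, a ligase adaptor, rose in both (0.69 and 0.76, limma adjusted p = 0.0102 and 0.00429), with its TRM call lost without TRM replicate 2 (0.06). Ddb2 fell with TRMs (log2 fold change -1.30, limma adjusted p = 0.0101) and kept that call in all 18 alternatives. Ercc6 fell with monocytes (log2 fold change -0.68, limma adjusted p = 0.0199), a call lost without alone replicate 3 or monocyte replicate 3 (0.0606 to 0.0917).

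Cell cycle genes were counted beside the members. Of 36 S-phase replication genes, 28 were called higher and 0 lower with monocytes, and 17 higher and 1 lower with TRMs; the TRM count of 18 was 8 without TRM replicate 2 and 10 without alone replicate 1 or 3. Of 26 G2/M genes, 26 were called higher with monocytes and 22 with TRMs. With monocytes the shares called higher were 77.8% (S phase) and 100% (G2/M), beside 14.7% of all genes. With TRMs they were 47.2% and 84.6%, beside 10.2%. The summed level of the G2/M genes was 1051 to 1192 CPM with TRMs, 1797 to 2110 CPM with monocytes and 455 to 647 CPM alone. That of the S-phase genes was 1964 to 2207 CPM, 2864 to 3030 CPM and 1404 to 1539 CPM in the same order. The summed level of the 36 members was 595 to 664 CPM with TRMs, 725 to 855 CPM with monocytes and 594 to 654 CPM alone, so TRM libraries and cells alone overlapped there. The sum weighs abundant members most. The mean log2 value of the members was 3.56 to 3.73 with TRMs, 3.86 to 4.13 with monocytes and 3.38 to 3.49 alone, without overlap. The part of cell cycle stage in the members' values was not tested. Between the co-cultures limma called 3 of 26 G2/M genes, Kif11, Cdc20 and Aurka, all lower with TRMs; the count ranged from 0 without any 1 of the 3 TRM libraries or without monocyte replicate 1 or 2 to 20 in DESeq2. Of the S-phase genes limma called 0 there, with 22 at an unadjusted p under 0.05 and 13 called by DESeq2. Over all genes limma called 0.398% there and counted 11.7% at an unadjusted p under 0.05.

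**Figure D4:**
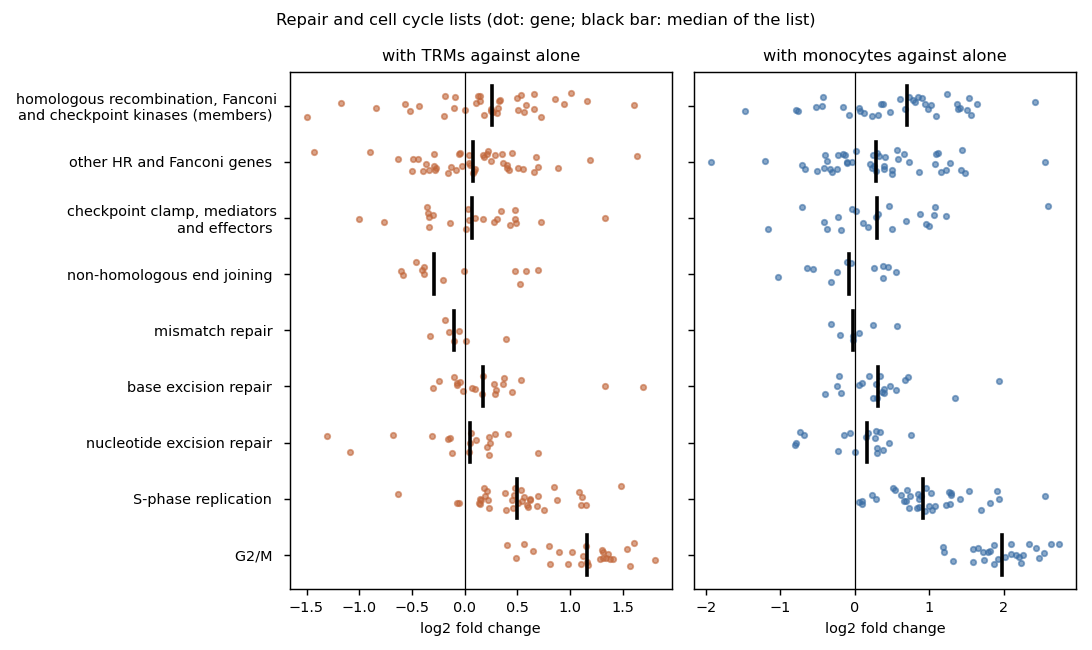
Log2 fold change of each gene (dot) in 9 lists of repair and cell cycle genes, with TRMs against alone (left) and with monocytes against alone (right); the black bar is the median of the list. The G2/M and S-phase medians lie highest in both panels, the member median is 0.26 (left) and 0.70 (right), and the dots of the members reach from Fancb at the low end to Fancd2 at the high end.

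The members varied within groups as well. Monocyte replicate 1 was the highest of its group for 20 of the 36 genes and replicate 3 the lowest for 21, and among the 14 genes called higher with monocytes these counts were 10 and 8. TRM replicate 3 was the highest of its group for 19 and TRM replicate 1 the lowest for 19. Alone replicate 2 was the highest for 16 and the lowest for 15. Without monocyte replicate 3 limma also called Xrcc2, Rad54b, Blm and Chek1 higher with monocytes. Exons of 17 members overlap another annotated gene, and nothing states that the kit marks strand, so reads in the overlaps cannot be assigned with certainty. The share of exon bases was largest for Rad54b (35.8%, Fsbp on the same strand), Fancc (16.4%), Fanci (16%, Polg), Rad54l (15.4%, Lrrc41), Fancl (13.7%, Vrk2) and Fanca (10.5%, Zfp276). With monocytes the log2 fold changes of the partners named were -0.65 for Fsbp, 0.29 for Polg, 0.28 for Lrrc41, 0.13 for Vrk2 and -0.32 for Zfp276. None of these had a limma adjusted p under 0.05. Lrrc59, which shares 8% of the exon bases of Eme1, was called higher in both co-cultures (log2 fold change 0.57 with TRMs and 0.84 with monocytes, limma adjusted p = 0.012 and 0.000784). In the authors' deposited tables, 1 member was called higher with TRMs (Fancd2) and 3 lower (Nbn, Fancb and Atm). In the authors' deposited tables for monocytes, 15 were called higher and 2 lower, of which 15 were also called here in the same direction. Rad51b and Fancm, called here with monocytes, were not called there, and Xrcc2 and Chek1 were called only there.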

How the data were processed

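RNA was measured in GFP-positive KP-GFP cells sorted from spheroids, in 9 libraries that the sample labels place in 3 groups of 3. Per the labels' protocols, RNA came from 20000 to 170000 sorted cells, 1 ng of RNA went into SMART-Seq v4 cDNA synthesis, and nothing states that the kit marks strand. Per the submitters' processing notes, the authors used STAR 2.5 and edgeR with the genome build mm10. A counting tool and an annotation are not given in those notes. The deposited table holds a normalised signal per gene: a value equals recovered reads (a whole number) plus 0.5, per 1000000 reads of a TMM-scaled library. All 111051 values (100%) gave whole reads within 1e-06 of a read. The authors' deposited tables of their comparisons hold log2 fold changes, a likelihood ratio score and p-values with false discovery rates, per the file headers, and were used only to compare calls.

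Log2 values of the 12326 genes left by edgeR's filterByExpr (minimum count 10, minimum total 15) were tested with limma 3.58.1 in R 4.3.3, with a variance trend and 1 mean per group, which leaves 6 residual degrees of freedom. P-values were two-sided and adjusted by Benjamini-Hochberg over all 12326 genes. An earlier analysis of these data had found scaled values, so the plan made limma the main test. It kept edgeR's quasi-likelihood test as the main one only if the values were whole counts. The values were scaled, and edgeR 4.0.16, DESeq2 1.42.0 and limma-voom ran on the recovered reads as alternatives. The 15 other alternatives were log2(value + 1), no filter, a value of at least 1 in 3 libraries, library totals, a fit of only the groups compared, the replicate number as a block, and leaving out each of the 9 libraries. Tested on simulated counts for 12326 genes, the procedure called 53% of genes changed 2-fold and 82% of those changed 4-fold for TRMs against alone, 59% and 76% for monocytes against alone, and 54% and 81% between the co-cultures. In each it called 7 unchanged genes. Far fewer genes were changed in the simulation than were called in either comparison with cells alone, so the rates in these data may differ.

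Replicates of a group differed by a chi-square of 21.1 to 90.5 per gene in recovered reads, far above sampling noise, and all 9 were kept as separate libraries. Positions and exon lengths come from GENCODE M21, and promoters from RefSeq, which held an entry for 28 of 36 members. The members and gene lists were chosen with earlier results of these data known. Every member is named, values in every library are given for the 8 smallest p-values of each comparison and for Brca1, Brca2, Fancd2, Rad54b, Chek1, Atm and Atr, and of each other list up to 3 called genes per comparison are named. Ptprc and Siglecf, outside that rule, were named after their values were seen. Cd14, Krt8 and the genes that overlap members are also named outside that rule. One gene of the further recombination list is not reported here.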

Additional observations from a re-analysis of the deposited data

How the results depend on the processing

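No call of a member changed direction under the 18 alternatives. Of the 8 member calls with TRMs, 3 (Fancb, Fancd2 and Atm) held in all of them, and of the 17 with monocytes 11 did (Brca1, Brca2, Rad54l, Eme1, Fanca, Fancb, Fancl, Fancd2, Fanci, Brip1 and Rpa1). Leaving out 1 library gave 3 to 9 member calls with TRMs and 12 to 19 with monocytes. Over all genes it gave 1217 to 2594 calls with TRMs (2262 in the full fit; 1217 without TRM replicate 2, 1442 without alone replicate 1 and 1391 without alone replicate 3) and 2240 to 3530 with monocytes (3366; 2240 without alone replicate 3). Between the co-cultures 49 genes were called, against 336 in DESeq2, 86 in limma-voom, 75 on log2(value + 1) and 79 with the replicate number as a block, and 0 to 134 when 1 library was left out, the highest without monocyte replicate 3 and 0 without TRM replicate 2. The cause of these shifts was not tested. Chek1 with TRMs, which was not called, ranged from -0.16 without alone replicate 1 to 0.38 without alone replicate 2, and was -0.12 without TRM replicate 3. Scaling by library totals gave 6 member calls with TRMs, 2 higher and 4 lower, and moved the median log2 fold change of all genes by less than 0.1. The replicate numbers are shared by the groups. Same-numbered libraries correlated at -0.025 to 0.43 in their deviations from the group means, mostly above 0, and differently numbered ones at -0.401 to 0.265. A pairing by number is therefore not excluded, although the main fit took the numbers as names. With the number as a block, 7 members were called with TRMs, 17 with monocytes and 0 between the co-cultures. Members of few reads, such as Rad51c and Bard1, limit what could be detected, and 3 libraries a group limit the precision of every interval.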
